A study of Mus musculus with 12 samples.

Results

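The synaptic vesicle and release genes are 42 genes of the presynaptic terminal, picked by symbol from the 57132 features of a count table of mouse striatum. They comprise synapsins, vesicle membrane proteins, synaptotagmins, SNARE proteins and their regulators, Rab3 GTPases, active zone scaffolds and endocytosis proteins. RNA was sequenced from the striatum of C57Bl/6 mice of 10 months and of both sexes, in 6 libraries labelled TAAR5-KO and 6 labelled WT, the latter from littermates without a treatment or further allele named. TAAR5-KO mice carry an inactivated gene for trace amine-associated receptor 5, a receptor for volatile amines, and how it was inactivated is not given in the sources used here. The tissue was a coronal slice in front of bregma from which the cortex was removed, so it holds spiny projection neurons, interneurons, glia and vessels, and whatever neighbouring tissue remained. All 42 genes were listed and all 42 passed the filter on low values (at least 0.5 CPM, counts relative to the library total, in at least 3 libraries), as did 13902 features in all.

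A nerve terminal releases transmitter when a vesicle, docked at the active zone by large scaffold proteins, fuses with the plasma membrane through the pairing of SNARE proteins on both membranes. Synaptotagmins sense the calcium that triggers fusion, complexins and Munc13 proteins hold and prime the SNAREs, and dynamin, amphiphysin, endophilin and synaptojanin take the membrane back. The RNA for these proteins lies mostly in the cell body, so a striatal sample reports the terminals of striatal neurons and not those of axons that arrive from cortex, thalamus or midbrain, unless their cell bodies were in the slice.

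Total counts ran from 11269915 to 34824450 per library, of which ribosomal RNA took 64.3% to 88.1%, and the 42 genes together held between 14925 counts (NK10) and 105965 counts (NK12). Taar5 had 1 to 6 counts in the libraries labelled TAAR5-KO and 0 to 2 in those labelled WT (0.142 ± 0.0617 against 0.0223 ± 0.0381 CPM, SD, n = 6 each, two-sided exact permutation test, p = 0.00649), where a count of 0 allows up to 3 counts. The low counts of Taar5 were thus higher in the libraries labelled TAAR5-KO, also on raw counts (two-sided exact permutation test, p = 0.0195). Since how the gene was inactivated is not given, whether these counts go against the labels cannot be told. Each direction given here follows the labels alone. Among 11 lists of cell type markers, the microglia list was the one whose summed level differed between the labels after adjustment, with 35.8 ± 4.30 CPM in libraries labelled TAAR5-KO and 45.8 ± 3.13 in those labelled WT (SD, n = 6 each, exact permutation test, p = 0.00216, the smallest possible, Benjamini–Hochberg adjusted p = 0.0238). The astrocyte list, at 1165 ± 78.5 against 1248 ± 68.5 CPM in sum (exact permutation test, p = 0.0909), separated the labels when the mean of log2 values was used instead (exact permutation test, unadjusted p = 0.00216, lower in libraries labelled TAAR5-KO). By that mean, the oligodendrocyte and oligodendrocyte precursor lists had unadjusted p of 0.0368 and 0.0390 (exact permutation test). In such bulk samples, fewer cells of a type and less RNA per cell cannot be told apart.

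Promoter sequences were read for 34 of the 42 genes from the RefSeq table of GRCm38.p6. The 250 bases before the start are shown for Rims1, the gene that followed the cortical marker level most closely across libraries, for Unc13c, which ran opposite to it, and for Syn1, the 1 gene of the 34 with both of the rarer motifs searched. Capitals mark matches on either strand to TTCAGCACC (the left part of the RE1 element, which binds the neuronal repressor REST), TGACGTCA (the cAMP response element) or GGGCGG (the GC box), which do not overlap each other in these 3 sequences.
Rims1 (chr1:22806159-22806408, minus strand): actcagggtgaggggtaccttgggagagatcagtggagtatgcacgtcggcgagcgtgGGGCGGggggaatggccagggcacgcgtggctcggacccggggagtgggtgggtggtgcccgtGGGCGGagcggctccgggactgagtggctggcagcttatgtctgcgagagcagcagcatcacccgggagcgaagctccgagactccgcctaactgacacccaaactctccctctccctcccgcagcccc
Syn1 (chrX:20920919-20921168, minus strand): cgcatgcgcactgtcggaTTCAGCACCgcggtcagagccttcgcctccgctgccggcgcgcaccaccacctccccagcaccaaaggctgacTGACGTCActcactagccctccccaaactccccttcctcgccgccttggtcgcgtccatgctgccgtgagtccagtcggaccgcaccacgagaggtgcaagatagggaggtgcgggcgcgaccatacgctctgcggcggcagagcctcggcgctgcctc
Unc13c (chr9:73969038-73969287, minus strand): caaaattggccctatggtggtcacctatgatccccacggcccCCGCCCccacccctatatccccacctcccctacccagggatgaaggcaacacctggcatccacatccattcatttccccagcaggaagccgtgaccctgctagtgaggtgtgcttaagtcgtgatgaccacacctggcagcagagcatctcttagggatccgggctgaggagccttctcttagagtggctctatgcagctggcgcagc
The Syn1 window held 1 match to TTCAGCACC and 1 to TGACGTCA, letters found in 0.301% and 1.55% of the 32851 promoters in the table. The Rims1 window held 2 GC boxes and the Unc13c window held 1, on the opposite strand. A GC box was found in 28 of the 44 promoters listed for the 34 genes (63.6%), against 32.7% of all promoters. TGACGTCA was otherwise found only at Sh3gl2. These are matches of letters, with no measurement of binding.

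None of the 42 genes passed a test for a difference between the genotype labels. In the likelihood ratio test of edgeR with adjustment over all features, 0 were called at an adjusted p under 0.1 in either direction, where 1.65% of all 13902 features were called, 0.957% as higher and 0.691% as lower in libraries labelled TAAR5-KO. The smallest adjusted p among the 42 was 0.337, 1 gene had an unadjusted p under 0.05 (against 11.9% of all features), and the quasi-likelihood test and DESeq2 also called 0, where they called 0.453% and 1.27% of all features. Genotype groups overlapped in all 42 genes, while they did not overlap in 1.01% of all features. The log2 ratios (TAAR5-KO label to WT label, with TMM scaling) lay between −0.22 and 0.22 with a median of −0.03, against −0.0059 over all features, and 19 were above 0 and 23 below. That median turned to 0.03 without NK4, to 0.02 without NK12 and to 0.02 with the GC trend removed. A p above the threshold does not show equal levels, so the interval of each difference matters. The 95% interval lay within 1.5-fold in either direction for 40 of the 42 genes, as it did for 61.7% of all features and for 91.5% of the 7488 features in the same range of mean CPM. The exceptions were Stx1a, at 0.620 to 1.36-fold, and Syn3, at 0.831 to 1.51-fold.

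**Figure D1:**
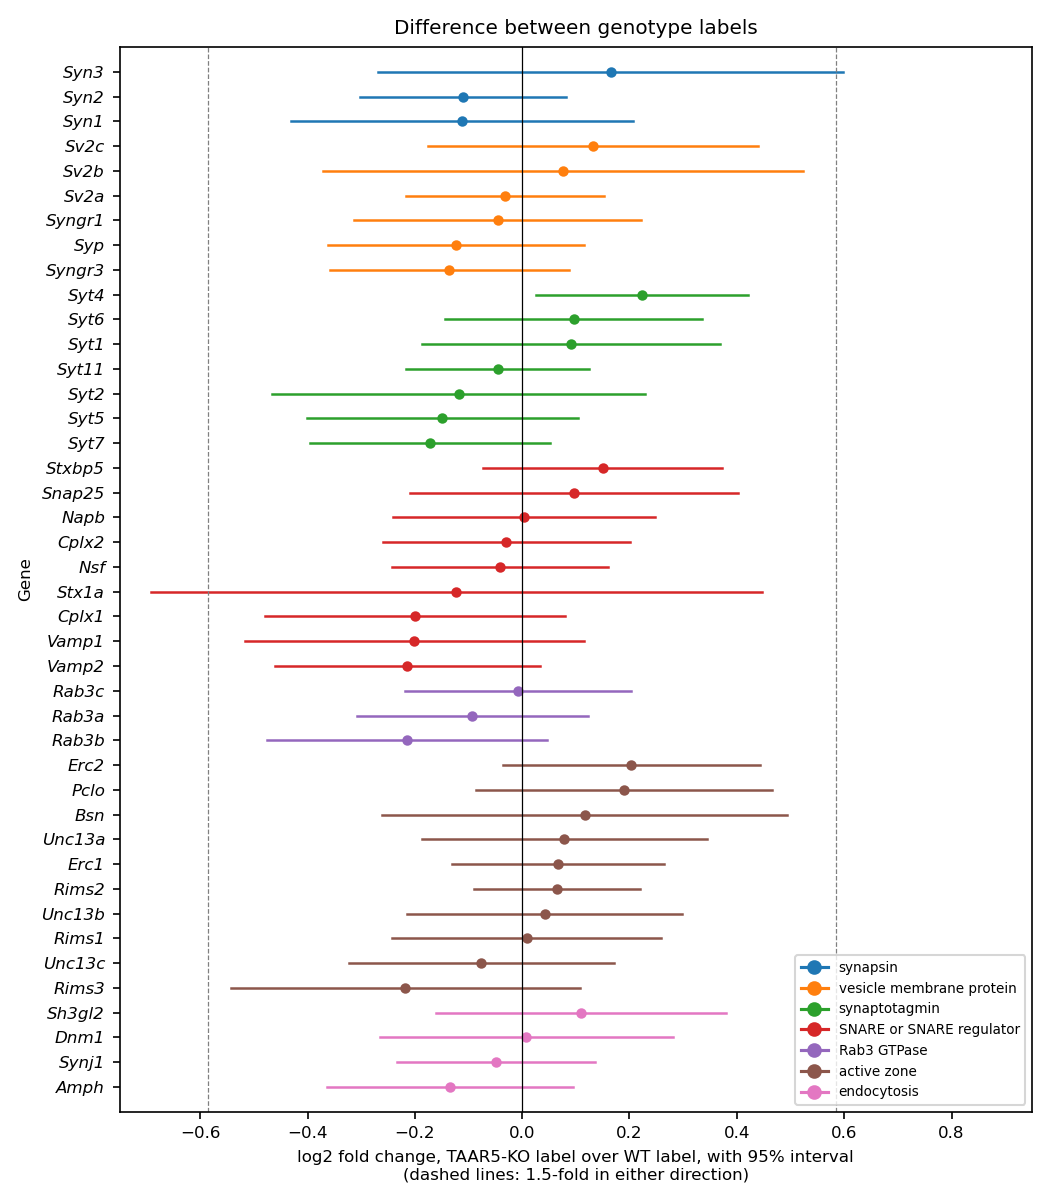
Log2 ratio of each gene (x axis, TAAR5-KO label to WT label) with its 95% interval as a line, coloured by role. Points lie between −0.22 and 0.22, and only the intervals of Stx1a and Syn3 cross a dashed line at 1.5-fold.

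Levels per length spanned a wide range within the set. Snap25, the plasma membrane SNARE that pairs with syntaxin and synaptobrevin, was the most abundant, with 52.3 ± 12.6 CPM per kb of merged exons in libraries labelled TAAR5-KO and 48.9 ± 7.96 in those labelled WT (SD, n = 6 each). Cplx2, a complexin that clamps the assembled SNAREs, followed with 46.9 ± 2.72 and 47.8 ± 8.10 CPM per kb, so that these genes did not differ from each other beyond their spread. Vamp2, the vesicle SNARE synaptobrevin 2, came next with 26.4 ± 3.23 and 30.6 ± 5.41 CPM per kb. Syn3, a synapsin known mainly from developing neurons, was at the lower end with 0.182 ± 0.0572 and 0.159 ± 0.0403 CPM per kb, just under Unc13b with 0.224 ± 0.0442 and 0.216 ± 0.0179.

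**Figure D2:**
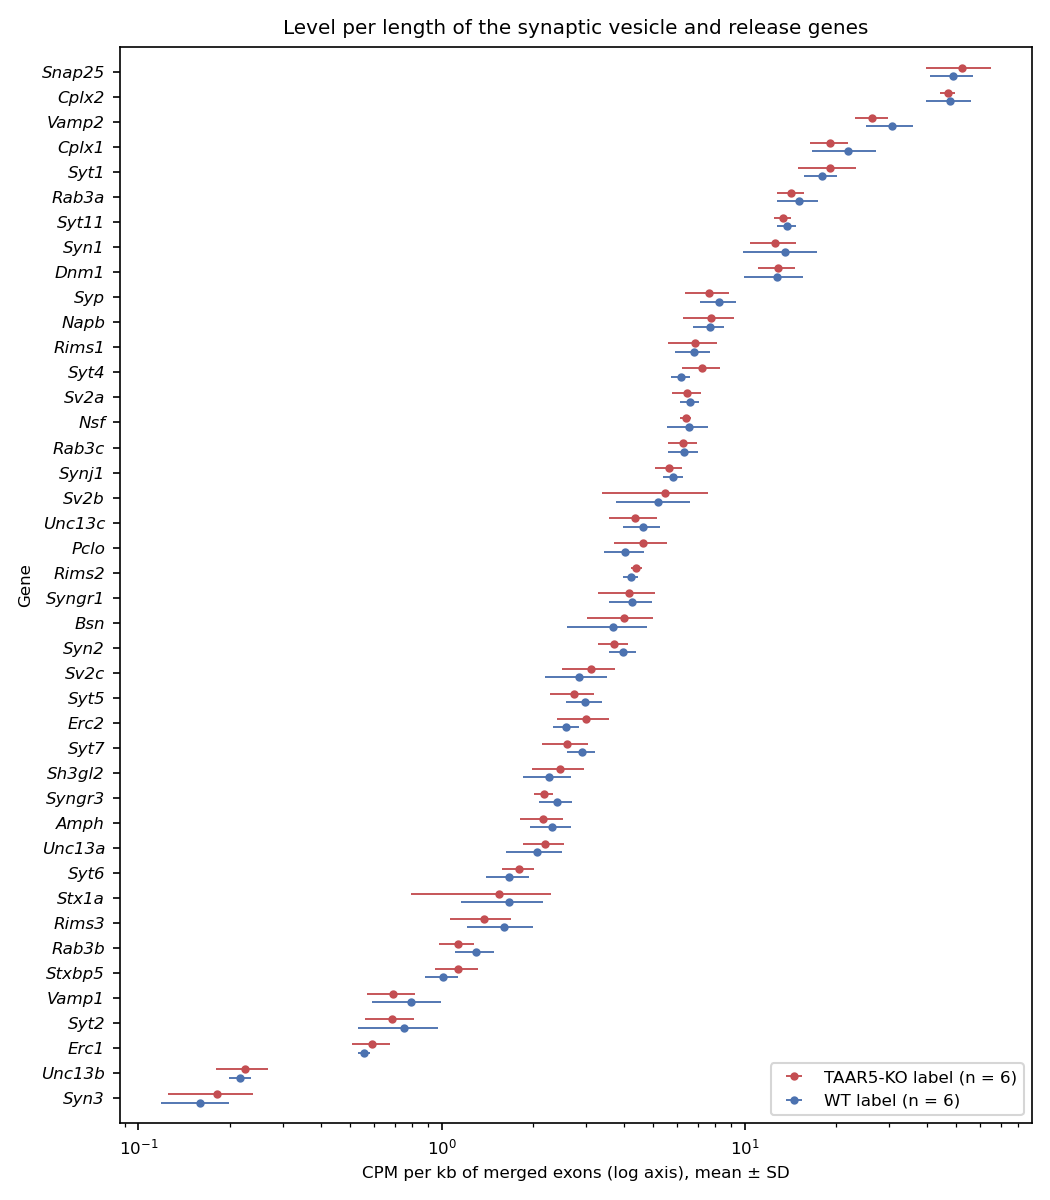
Mean level of each gene in CPM per kb of merged exons (x axis, log scale) with the SD over 6 libraries per genotype label, genes ordered by their overall mean. Snap25 and Cplx2 stand at the top and Unc13b and Syn3 at the bottom, and the 2 labels overlap for every gene.

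Among the synapsins, which tether vesicles to the cytoskeleton, Syn1 was the most abundant and Syn3 the least. Syn1 ran from 31.6 to 52.0 CPM with a median of 41.5 in libraries labelled TAAR5-KO and from 29.9 to 59.5 with a median of 44.4 in those labelled WT. The WT range enclosed the other, and the log2 ratio was −0.11 (SE 0.16, likelihood ratio test, adjusted p = 0.850). Syn3 was counted with at most 96 reads in a library, and 14.1% of its exon bases overlap Timp3, so its value is uncertain.

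Of the 6 vesicle membrane proteins, synaptophysin (Syp) was highest per length at 7.61 ± 1.25 and 8.25 ± 1.12 CPM per kb, and Syngr3, a synaptogyrin, was lowest at 2.18 ± 0.157 and 2.40 ± 0.298 (SD, n = 6 each). The value of Syp is uncertain, since 16.8% of its exon bases overlap Gm14703. The SV2 paralogues, glycoproteins of the vesicle membrane, behaved unlike each other across libraries. Sv2a, the ubiquitous form, had a coefficient of variation of 9.04% over the 12 libraries, Sv2c, the form enriched in the basal ganglia, 21.0%, and Sv2b 32.0%. Counting error alone gives 3.72% to 4.62% for these genes. Sv2b ran from 22.7 CPM in NK4 to 65.6 in NK3, both labelled TAAR5-KO, and from 26.4 to 57.3 in libraries labelled WT, so the spread within a label exceeded the difference between labels (log2 ratio 0.08, SE 0.23, likelihood ratio test, adjusted p = 0.939).

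The 7 synaptotagmins held the smallest unadjusted p of the set. Syt4, a synaptotagmin of dense core vesicles, ran from 23.2 to 33.0 CPM with a median of 27.8 in libraries labelled TAAR5-KO and from 21.8 to 26.8 with a median of 24.1 in those labelled WT. Of the libraries labelled TAAR5-KO, 5 of 6 lay above the WT median, but the groups overlapped. Only NK1, NK2 and NK3 lay above the WT range, while NK4, NK5 and NK6, at 23.2, 25.4 and 26.2 CPM, lay inside it. Within that label NK1, NK2 and NK3 also had the highest ribosomal RNA shares, 86.6% to 88.1% against at most 81.9% (NK4). Their summed choroid plexus markers were the lowest of that label, at 2.53 to 3.73 CPM against at least 8.11 (NK6). The part of these measures in the values of Syt4, and of Erc2 below, was not tested. The log2 ratio was 0.22 (SE 0.10, likelihood ratio test, adjusted p = 0.337, quasi-likelihood adjusted p = 0.339) and the interval ran from 1.02 to 1.34-fold. Overlap with Gm26658 covers 14.5% of its exon bases. Syt7, the slow calcium sensor of asynchronous release, ran from 15.3 to 24.1 CPM (median 19.7) against 19.0 to 24.9 (median 21.7), with a log2 ratio of −0.17 (SE 0.11, adjusted p = 0.585). Syt1, the fast calcium sensor, was the most abundant synaptotagmin, at 160 ± 34.4 CPM in libraries labelled TAAR5-KO and 150 ± 18.6 in those labelled WT. Syt2, which serves the same function in hindbrain and in fast-spiking interneurons, was the least abundant per length, at 0.687 ± 0.128 and 0.751 ± 0.221 CPM per kb.

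Of the 9 SNARE genes and regulators, Vamp2 showed the smallest p. It ran from 84.5 to 114 CPM with a median of 103 in libraries labelled TAAR5-KO, and from 92.5 to 142 with a median of 116 in those labelled WT. All 6 libraries labelled TAAR5-KO lay under the WT median, yet 4 of the 6 were inside the WT range. The log2 ratio was −0.21 (SE 0.13, adjusted p = 0.510). Stx1a, the syntaxin of the plasma membrane, varied most of all 42 genes, from 1.30 CPM in NK4 to 6.44 in NK12, with a coefficient of variation of 38.3% where counting error gives 12.0%. Nsf and Napb, which take spent SNARE complexes apart, had log2 ratios of −0.04 and 0.0033. Vamp1, the synaptobrevin paralogue of motor and fast-spiking neurons, was the lowest per length of this group at 0.692 ± 0.123 and 0.793 ± 0.203 CPM per kb.

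The 3 Rab3 genes, small GTPases that mark vesicles for docking, all had log2 ratios below 0. Rab3b showed the largest, −0.21 (SE 0.13, adjusted p = 0.542), and ran from 3.52 to 4.99 CPM (median 3.82) in libraries labelled TAAR5-KO and from 3.72 to 5.51 (median 4.74) in those labelled WT. Only 1 library labelled TAAR5-KO lay above the WT median, but the ranges overlapped over most of their length, and part of the exon bases of Rab3b overlap 8030443G20Rik. Rab3a was the highest per length at 14.2 ± 1.46 and 15.1 ± 2.34 CPM per kb.

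The active zone genes were the only role in which most log2 ratios were above 0, 8 of 10, with a median of 0.07 under TMM scaling. Erc2, the ELKS-family scaffold CAST, ran from 21.9 to 35.1 CPM (median 30.2) in libraries labelled TAAR5-KO and from 22.0 to 29.3 (median 24.9) in those labelled WT. NK1, NK2 and NK3 lay above every library labelled WT, while NK4 lay below all of them, and the log2 ratio was 0.20 (SE 0.12, adjusted p = 0.527). Pclo and Bsn, the giant scaffolds piccolo and bassoon, had log2 ratios of 0.19 (SE 0.14) and 0.12 (SE 0.19). Rims3, a short RIM without the priming domains, had the lowest log2 ratio of the set at −0.22 (SE 0.17, adjusted p = 0.644). Rims1 was the highest per length of this group, at 6.86 ± 1.25 and 6.80 ± 0.908 CPM per kb. Rims2 was the steadiest of all 42 genes, from 41.3 to 47.6 CPM over the 12 libraries, with a coefficient of variation of 5.10% where counting error gives 3.72%.

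The direction of the small differences went with the length of the gene. Over the 42 genes the log2 ratio correlated with the log2 of exon length (Pearson r = 0.563, rho = 0.559), against r = 0.0577 and rho = 0.107 over all 13902 features. The 21 shorter genes, up to 7051 bases, had a median log2 ratio of −0.09, and 6 were above 0. The 21 longer genes had a median of 0.06, and 13 were above 0. All 10 active zone genes, 8 of them above 0, are among the longer genes, the shortest being Rims3 with 7972 bases. An active zone role therefore cannot be told apart from length in this set. Longer genes outside the active zone had log2 ratios on both sides of 0, such as 0.15 for Stxbp5 and −0.20 for Vamp1. Genes are not independent replicates, all points share the same 12 libraries, and no p is attached to this description.

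The endocytosis genes, which retrieve vesicle membrane after fusion, did not pass the test either, with log2 ratios from −0.13 for Amph to 0.11 for Sh3gl2 and adjusted p from 0.702 to 0.991. Dnm1, the neuronal dynamin, was highest per length at 12.9 ± 1.83 and 12.8 ± 2.81 CPM per kb, and Amph was lowest at 2.17 ± 0.345 and 2.32 ± 0.352.

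Across the libraries, most of these genes had a positive correlation with the level of markers of cortical pyramidal neurons. The summed level of 8 such markers, of which Slc17a7 made up 33.1% and Rasgrf2 22.2%, ran from 48.1 CPM in NK4 to 140 in NK12, with 0 of the 8 at zero counts. Rasgrf2 did not follow the sum in each library. It was lowest in NK3, at 16.0 CPM where the sum was 120, but 24.5 in NK11, where the sum was 119. A sum without Rasgrf2 was not run. No difference between the labels was detected, with 90.8 ± 31.8 CPM in libraries labelled TAAR5-KO and 92.9 ± 32.4 in those labelled WT (SD, n = 6 each, exact permutation test, p = 0.913). NK4, NK9, NK5 and NK10 stood at the lower end and NK11, NK3, NK6 and NK12 at the upper end, so libraries of both labels lay at both ends.

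Each gene was compared with this level across the 12 libraries on the log2 scale, with 100000 permutations and adjustment over all 13902 features. A relation was taken to hold where the adjusted p of Pearson's r and of Spearman's rho were under 0.05, where the permutation p stayed under 0.05 without the 2 libraries farthest from the median (NK4 and NK9), and where the sign was the same within each label. It held for 10 of the 42 genes (23.8%) in the positive direction, against 2.16% of all features, 3.63% of those in the same range of mean CPM and 13.3% of 90 other presynaptic genes, and for 1 gene in the negative direction, against 0.209%. With 1 library left out, it held for 4 to 12 genes in either direction, and for 4 without NK12, 5 without NK4, NK5 or NK9, 6 without NK3 and 7 without NK10 or NK11. Over all features it then held for 1.01% without NK12, 0.813% without NK4, 1.03% without NK5 and 0.770% without NK9. That share was 1.76% without NK3, 1.46% without NK10 and 1.83% without NK11, against 2.37% with all 12 libraries. The median r was 0.751 over the 42 genes, 0.0707 over the 7488 features in the same range of mean CPM and 0.296 over the other presynaptic genes. For the 12 pan-neuronal markers the median was 0.515, and the relation held for 2 of them.

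Rims1, which organizes the release site, followed the cortical level most closely (r = 0.981, adjusted p = 0.00409, rho = 0.993, adjusted p = 0.00869, by permutation). It rose from 40.9 CPM in NK4 to 66.4 in NK12, and r was 0.966 without NK4 and NK9, 0.998 within the libraries labelled TAAR5-KO and 0.978 within those labelled WT. Sv2b followed with r = 0.963 (adjusted p = 0.00409 by permutation, rho = 0.909) and Dnm1 with r = 0.935 (adjusted p = 0.00488 by permutation, rho = 0.930). The other positive relations were those of Stx1a (r = 0.931), Syn1 (r = 0.928), Unc13a, the main priming factor of the brain (r = 0.911), Napb (r = 0.891), Snap25 (r = 0.859), Sh3gl2, which encodes endophilin A1 (r = 0.852), and Nsf (r = 0.790). Syt1, Bsn and Synj1 had r from 0.870 to 0.880 but missed the threshold on rho.

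Unc13c, the Munc13 paralogue otherwise known from cerebellar granule cells, was the 1 gene with the opposite relation (r = −0.846, adjusted p = 0.0349, rho = −0.930, adjusted p = 0.00959, by permutation). It was highest in NK9 and NK4, with 47.9 and 46.9 CPM, and lowest in NK6 with 30.4, and r was −0.765 without NK4 and NK9, −0.959 within the libraries labelled TAAR5-KO and −0.760 within those labelled WT. Sv2c had the next lowest r, −0.459 (adjusted p = 0.473 by permutation), a relation that did not pass.

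**Figure D3:**
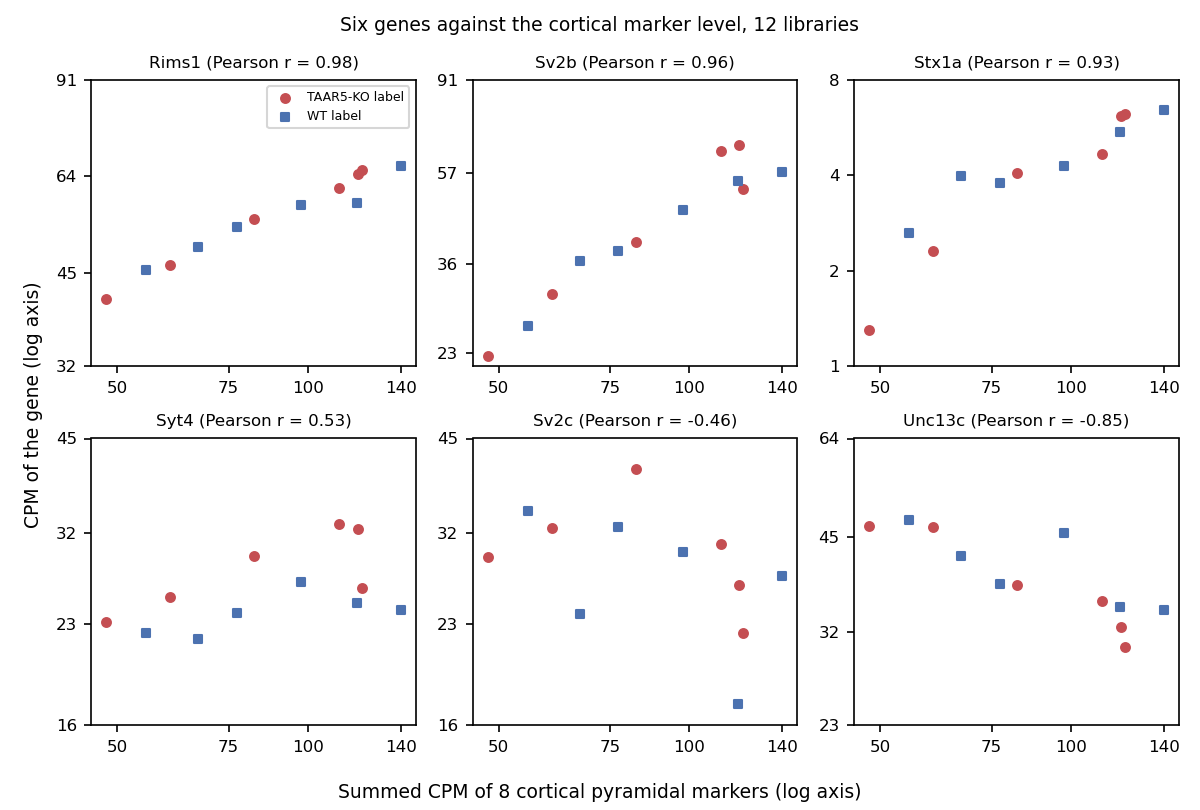
CPM of 6 genes (y axes, log scale) against the summed CPM of 8 cortical pyramidal markers (x axes, log scale), 1 point per library, with genotype labels as colours. Rims1, Sv2b and Stx1a climb with the cortical level in libraries of both labels, Unc13c falls, and Syt4 and Sv2c show no relation that passed.

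Depth and the markers of other cell types were compared with the cortical level in the same way. The cortical level had r = 0.632 with the log2 of counts outside ribosomal RNA, r = −0.708 with the choroid plexus markers (which ran from 2.53 to 471 CPM) and r = −0.484 with the spiny neuron markers, with adjusted permutation p of 0.0987, 0.0930 and 0.189 over 14 such measures (rho = 0.671, −0.699 and −0.608). Pan-neuronal markers had r = 0.785 with an adjusted permutation p of 0.0204 (rho = 0.727, adjusted p = 0.0956). Interneuron, astrocyte and ependymal markers had r of 0.639, 0.608 and −0.594, each with an adjusted permutation p of 0.0987 (rho = 0.615, 0.434 and −0.594). The relation to the cortical level was not the sole one. With the choroid plexus markers the median r of the 42 genes was −0.572, 11 genes had a larger r in size than with the cortical markers, and the relation held by the same rule (here without NK1 and NK2) for 2 genes in the negative direction and 0 in the positive, against 0.273% and 0.705% of all features. These were Syt1 (r = −0.896, adjusted permutation p = 0.0262, rho = −0.874, adjusted p = 0.0408) and Pclo (r = −0.830, adjusted permutation p = 0.0460, rho = −0.874, adjusted p = 0.0408). Syt4, at r = −0.755 with the choroid plexus markers (adjusted permutation p = 0.0814), did not pass. With the pan-neuronal markers the median r was 0.565, 10 genes had a larger r in size than with the cortical markers, and the relation held for 0 genes, as for 0% of all features. The part of these measures in the relation of the release genes to the cortical level was not tested.

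The spiny neuron markers themselves gave no relation that held for any of the 42 genes, by the same rule that held for 0.0216% of all features. Sv2c and Syt6, a synaptotagmin of deep cortical and striatal neurons, had the highest r with them, 0.758 and 0.759, with adjusted permutation p of 0.281 and 0.299 (rho = 0.524 and 0.503). Rims3 had the lowest, −0.729 (adjusted permutation p = 0.141, rho = −0.790). Sv2c and Syt6 were lowest in NK11, with 17.3 and 7.16 CPM, where the summed spiny neuron level was also lowest at 198 CPM, and without NK11 and NK4 the r fell to 0.498 and 0.366.

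**Figure D4:**
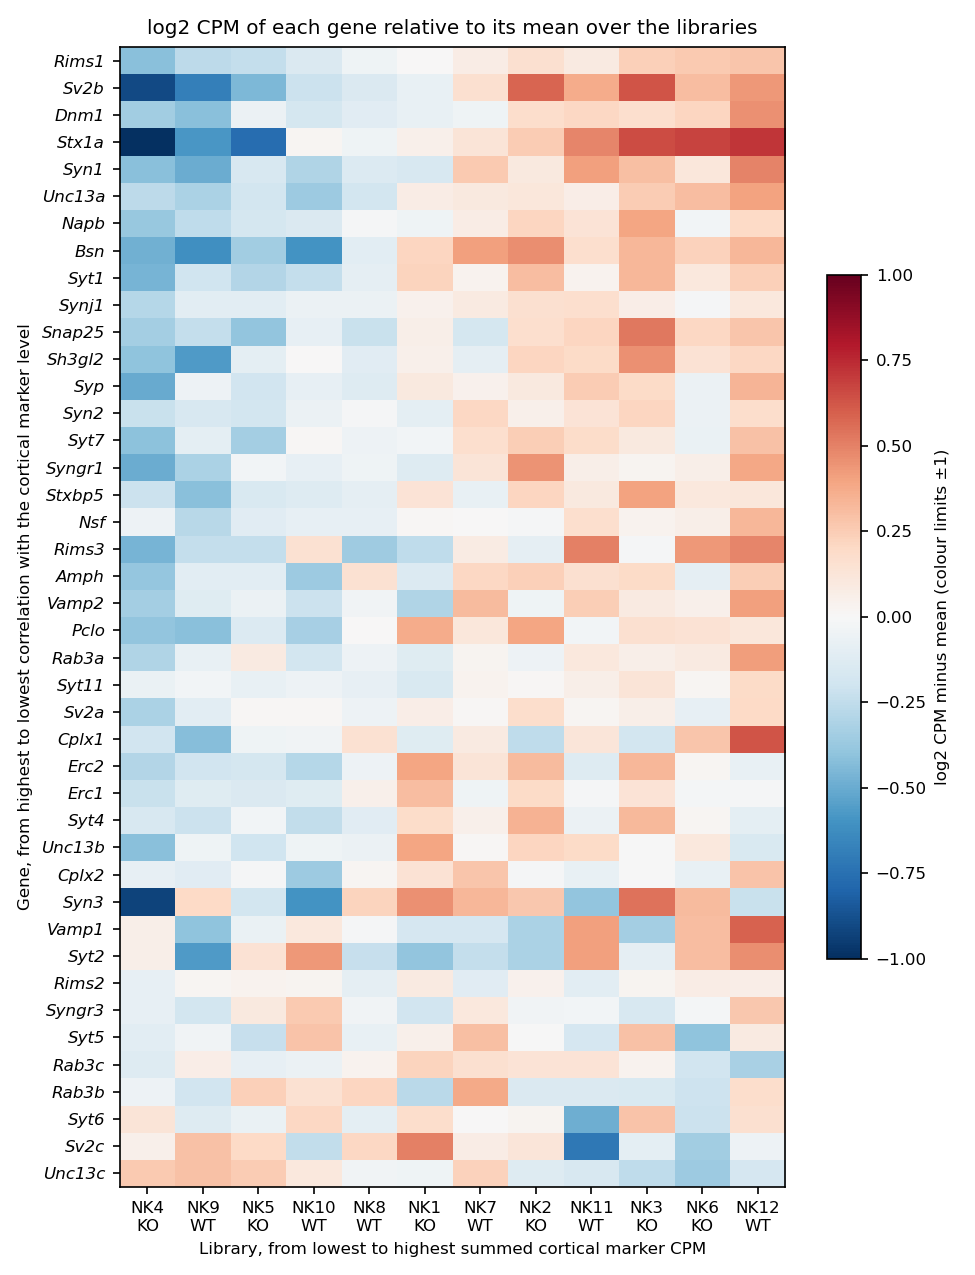
Log2 CPM of the 42 genes (rows) in the 12 libraries (columns), each gene relative to its own mean, with libraries ordered by the summed cortical marker level. From left to right most rows pass from blue (below the mean) to red (above it), while Unc13c at the bottom runs the other way and libraries of both labels are mixed along the axis.

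With the cortical level as a covariate in the likelihood ratio test, a fit added after the values were seen, 0 of the 42 genes were called, against 4.73% of all features. An unadjusted p under 0.05 was found for 6 of the 42 genes, Syt4, Stxbp5, Vamp2, Pclo, Erc2 and Syt7, and for 15.5% of all features, so the count is not above the background. Syt4 came closest to the threshold, with a log2 ratio of 0.23 (adjusted p = 0.106).

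Among 93 other genes of the presynaptic terminal, from further synaptotagmins and SNAREs to clathrin adaptors and vesicular transporters, 91 were tested and 1 was called, lower in libraries labelled TAAR5-KO, where 0.691% of all features were lower. Slc17a6, which encodes the vesicular glutamate transporter VGLUT2, had a log2 ratio of −0.93 (SE 0.29, adjusted p = 0.0970) and was not called by the quasi-likelihood test (adjusted p = 0.232). It ran from 1.48 to 4.77 CPM (median 3.04) in libraries labelled TAAR5-KO and from 3.12 to 12.5 (median 5.67) in those labelled WT, where NK11 was the highest. Without NK11 its log2 ratio was −0.57 (adjusted p = 0.374), and the call was also lost without NK1, NK2, NK3, NK6, NK7, NK9 or NK10. The next smallest p belonged to Slc18a3, the vesicular acetylcholine transporter, with at most 19 counts (log2 ratio −1.07, SE 0.41, adjusted p = 0.194), to Synpr, synaptoporin (0.29, SE 0.12, adjusted p = 0.243), and to Snap47 (−0.24, SE 0.10, adjusted p = 0.263). The median log2 ratio of the 91 genes was −0.02.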

How the data were processed

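After depletion of rRNA from total striatal RNA, directional libraries were read from 1 end (the molecule field of the labels reads polyA RNA instead). Per the labels, the reads were trimmed with cutadapt 4.1, aligned with STAR 2.7.11b to GRCm39 and counted with featureCounts 2.0.6. What the authors deposited are raw read counts for each gene, beside its merged exon length. Strand setting and the handling of multi-mapping and overlapping reads are not given in the sources used here. Columns carry a genotype and a number (NK1 to NK12) tied to no animal, sex or partner, and 12 further columns of counts were not used here.

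Counts were normalized with TMM and compared with glmFit and glmLRT of edgeR 4.0.16 (R 4.3.3) without covariates. Genes were called where the p adjusted by Benjamini–Hochberg was under 0.1. The likelihood ratio test and this threshold are those of the study's methods, which name CPM as the normalization and do not name TMM. The quasi-likelihood test and DESeq2 1.42.0 were run beside the likelihood ratio test. Intervals are 1.96 SE of the fit. Values with 1 number per library were tested over all 924 assignments. Log2 CPM had a prior count of 2. Animals are replicates only as the labels name them, and coefficients and floors named as counting error hold that error alone. The fits were tested on simulated data. Named genes were the members of smallest p, of highest and lowest level per length in each role, and other presynaptic genes that were called or had the next 3 smallest p; genes named for their relation to the cortical level, variation or length were chosen after their values were seen. The members of the marker lists are not all reported here by name. The members and lists were chosen with earlier results of these data known. GC content came from GRCm39 and its GENCODE M39 annotation, while M35 was used upstream.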

Additional observations from a re-analysis of the deposited data

Results flagged for a closer look

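In 110 groups of 6 libraries, 5 had 1 library whose gap to its neighbour, as a share of the range, exceeded Dixon's 95% critical value, and chance gives about 1 in 20. Cplx1 was high in NK6, labelled TAAR5-KO, at 53.5 CPM, with the next library of that label at 42.9. Cplx2 was high in NK1, labelled TAAR5-KO, at 256 CPM, with the next at 231. The spiny neuron markers were low in NK11, labelled WT, at 198 CPM in sum, with the next at 316. The oligodendrocyte markers were low in NK12, labelled WT, at 638 CPM in sum, with the next at 761. Slc17a6 was high in NK11, labelled WT, at 12.5 CPM.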

How the results depend on the processing

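No paired analysis was possible because the columns of counts carry no animal numbers. The count of 0 among the 42 genes was the same under each alternative test, normalization, filter, trend correction and left-out library that was run. The count over all features was 63 with the quasi-likelihood test, 7 with library size alone, 93 without a filter, 91 with the GC trend removed, 108 at an adjusted p under 0.05, 657 with the cortical level as a covariate and 85 to 414 when 1 library was left out (85 without NK11, 102 without NK7, 114 without NK1 or NK2, 136 without NK12, 137 without NK3, 414 without NK4). The 1 call among the other presynaptic genes became 0 with the quasi-likelihood test, DESeq2, library size alone, the length or GC trend removed, robust dispersions and the threshold of 0.05, was 3 with the cortical covariate, and ran from 0 to 2 with 1 library left out. Library size alone moved the median ratio over the features tested by −0.49 (log2). Relative to that shift, Sv2b was at −0.18. The summed spiny neuron markers, with the shift left in, were at −0.19 on the log2 scale, against 0.29 with TMM (exact permutation p = 0.0303, adjusted p = 0.111). On library size alone the median level per length was 5.22 CPM per kb against 4.26, and the relation to the cortical level held for 42 genes and for 87.6% of all features. The cause of these moves was not tested. That relation held for 9 genes without Slc17a7 in the marker list (2.06% of all features) and 10 with the mean of log2 values (2.40%). With 1 library left out it held for 4 genes (without NK12, 1.01% of all features) to 12 (without NK6, 1.57%). Without a filter the median of the features tested moved by −0.11 (log2). The cortical covariate, the other marker levels and the left-out libraries in the correlations were added after seeing the data. Syn3, Stx1a and Syt2 had the lowest counts in any library, 11, 21 and 33.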
